A study of Mus musculus with 12 samples.

Results

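The heavy chain CDR3s described here begin with threonine in place of the usual alanine. They come from transcripts sequenced in 12 libraries of spleen B cells. The mice were female, 14 weeks old and of the lupus-prone strain MRL/lpr, which is homozygous for the lpr mutation of Fas in both groups. A CDR3 was read from every translation without a stop as the residues between the cysteine of a [YF][YF]C motif that ended at residue 16 to 30 and the tryptophan of the last WG[QAT]GT motif. Of 546610 such CDR3s, 36318 began with threonine and 487582 with alanine.

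Of the 12 libraries, 6 came from mice given Control SMO and 6 from mice given LFPRLR SMO, each through an implanted minipump. An SMO is a splice-modulating oligomer, and the LFPRLR SMO was designed to lower the long form of the prolactin receptor in mice. Transcripts were amplified between the J558 VH family and the Cμ constant region, so other VH families and switched isotypes were outside the measurement. Only Igh transcripts were measured, so the labelled cell type could not be checked against other B-cell markers.

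The third complementarity-determining region is formed where a V, a D and a J segment are joined, and it is the most variable loop of the antigen-binding site. It follows the conserved cysteine that closes framework 3. In most mouse VH segments the last germline codons after this cysteine encode alanine and arginine, so a CDR3 often opens with that pair before the junction and the D segment begin. A threonine codon differs from the alanine codon with the same last bases in its first base.

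The libraries held 130635 to 227202 reads, apart from LFPRLR SMO replicate 6 with 627 reads, 493 CDR3s and 36 threonine-first CDR3s, so that 1 CDR3 was worth 2.78% of its members. Between 91.6% and 95.7% of the translations without a stop gave a CDR3. The 50 most abundant sequences overlapped between some libraries of a group: 34 were in both Control SMO replicates 4 and 8, 44 in both Control SMO replicates 5 and 7, and 36 in both LFPRLR SMO replicates 4 and 5. LFPRLR SMO replicate 6 and Control SMO replicate 4, of different groups, shared 12. Whether reads were carried between libraries was not tested, and this bears on each count of libraries that hold a CDR3. Read shares mix the number of cells of a clone, the mRNA per cell and PCR copies, which cannot be told apart.

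To show what stands before a threonine, the 66 bases before the cysteine codon were compared. The 5 stretches that held most threonine-first CDR3s, by the mean share over libraries, are called T1 to T5, and the 3 that held most alanine-first CDR3s are called A1 to A3. Each is printed from framework 3 through the cysteine codon tgt, with the commonest first 6 bases of the CDR3 behind it in capitals.
T1: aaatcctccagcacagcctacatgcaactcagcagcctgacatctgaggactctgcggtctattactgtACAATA
T2: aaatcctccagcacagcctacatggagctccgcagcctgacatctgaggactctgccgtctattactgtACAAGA
T3: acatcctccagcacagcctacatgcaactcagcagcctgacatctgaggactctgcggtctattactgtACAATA
T4: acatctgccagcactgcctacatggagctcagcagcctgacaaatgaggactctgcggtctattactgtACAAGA
T5: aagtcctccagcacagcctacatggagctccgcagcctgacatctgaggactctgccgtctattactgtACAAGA
A1: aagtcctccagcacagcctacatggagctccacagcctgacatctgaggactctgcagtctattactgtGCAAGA
A2: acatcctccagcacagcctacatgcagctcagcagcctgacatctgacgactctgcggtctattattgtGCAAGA
A3: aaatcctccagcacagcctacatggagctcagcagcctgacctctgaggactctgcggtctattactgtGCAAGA

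T1 and T3 differed in 1 base, as did T2 and T5, so the 5 stretches fell into 3 kinds. T1 and T3 read QLS at framework residues 9 to 11, and their commonest CDR3 opening was threonine then isoleucine. T2 and T5 read ELR there, and their commonest opening was threonine then arginine. T4 read ELS, with alanine at residue 3 and asparagine at residue 15, where T1 has serine in both places. A1, the commonest alanine stretch, differed from T5 in 2 bases and 1 residue, the histidine of ELH in place of the arginine of ELR.

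Threonine-first CDR3s made up 5.07% to 9.63% of the CDR3s of a library, and the groups overlapped. In Control SMO mice the share of translations was 6.90%, 8.11%, 5.36%, 5.73%, 8.28% and 6.04% in replicates 3, 4, 5, 7, 8 and 9. In LFPRLR SMO mice it was 6.28%, 6.08%, 9.63%, 7.30%, 5.62% and 5.07% in replicates 3 to 8. The lowest and the highest libraries both belonged to the LFPRLR SMO group, and the 95% Wilson interval of replicate 6 alone ran from 5.32% to 9.94%. The medians were 6.47% and 6.18%, and the difference of -0.29 percentage points did not pass an exact Mann–Whitney U test (two-sided, adjusted over the 20 possible first residues, p = 0.981). Of the 20 residues, 0% passed after adjustment, and 1, glycine, had an unadjusted p below 0.05.

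**Figure D1:**
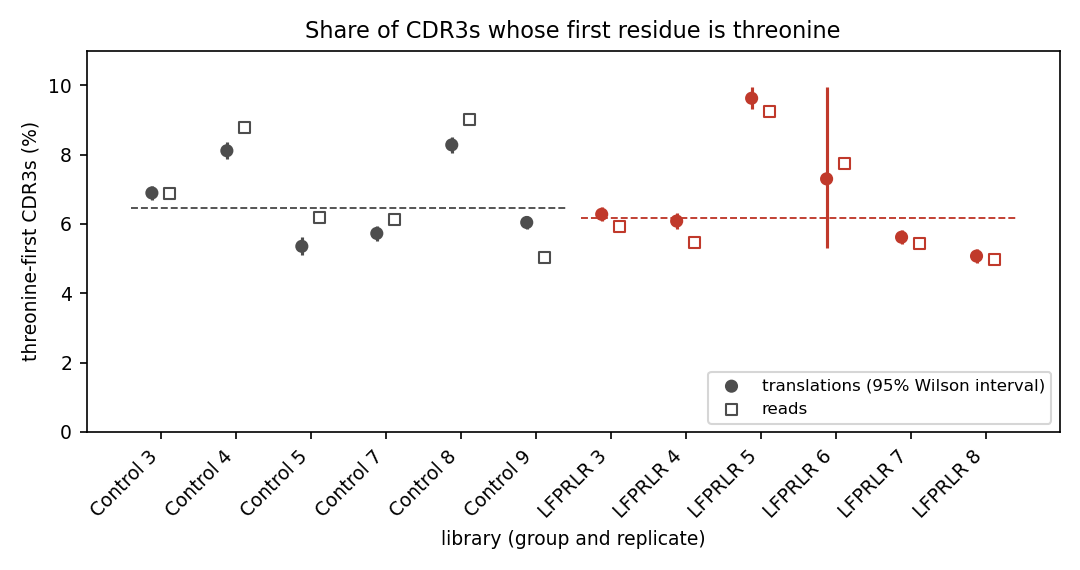
Share of CDR3s that begin with threonine, in percent, for each library. Filled circles are shares of unique translations with 95% Wilson intervals (counting error only), open squares are shares of reads, and dashed lines are group medians of the filled circles, 6.47% and 6.18%.

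Weighting by reads gave nearly the same picture. The read share had a lowest, median and highest value of 5.04%, 6.53% and 9.02% in Control SMO mice and of 4.97%, 5.70% and 9.25% in LFPRLR SMO mice. The difference of medians was -0.83 percentage points (exact Mann–Whitney U test, adjusted p = 0.693), and it ranged from -1.17 to -0.49 with 1 library left out. Again 0% of the first residues passed after adjustment, while 5 of 20 had an unadjusted p below 0.05, and threonine was not among them. The libraries also fell into 2 sets of 6 that no label names, told apart at 10% by the share of sequences with a second version of the constant-region end, which was 33.2% to 40.1% in set 1 and 0.13% to 2.27% in set 2. Averaged over the 2 sets, the within-set differences of medians had the other sign, 0.22 percentage points for translations and 0.12 for reads. For reads the sign did not turn in each set: in set 1 the median read share was 6.13% in Control SMO and 5.47% in LFPRLR SMO mice. For translations the set 1 medians were 6.04% in Control SMO and 6.08% in LFPRLR SMO mice. In set 2 the LFPRLR SMO median was replicate 6 itself, at 7.30% of translations and 7.76% of reads. The Control SMO medians there were 6.90% and 6.87%. Leaving out Control SMO replicate 3, 4 or 8 also turned the difference in translations, to 0.14.

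Behind T1 a threonine opened 45.03% to 75% of the unique nucleotide sequences of a library, with a median of 56.4%. Behind T2 the share ran from 82.5% to 95.2%, behind T3 from 37.3% to 77.03%, behind T4 from 63.4% to 89.9% and behind T5 from 72.1% to 94.6%, in the libraries with at least 20 sequences of the stretch. Behind A1, A2 and A3 the medians were 1.80%, 0.26% and 2.61%. The lowest share behind a T stretch lay above the highest behind an A stretch, as the plot of threonine shares by stretch shows. The stretches were picked for holding threonine-first or alanine-first CDR3s, so these shares are a description.

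**Figure D2:**
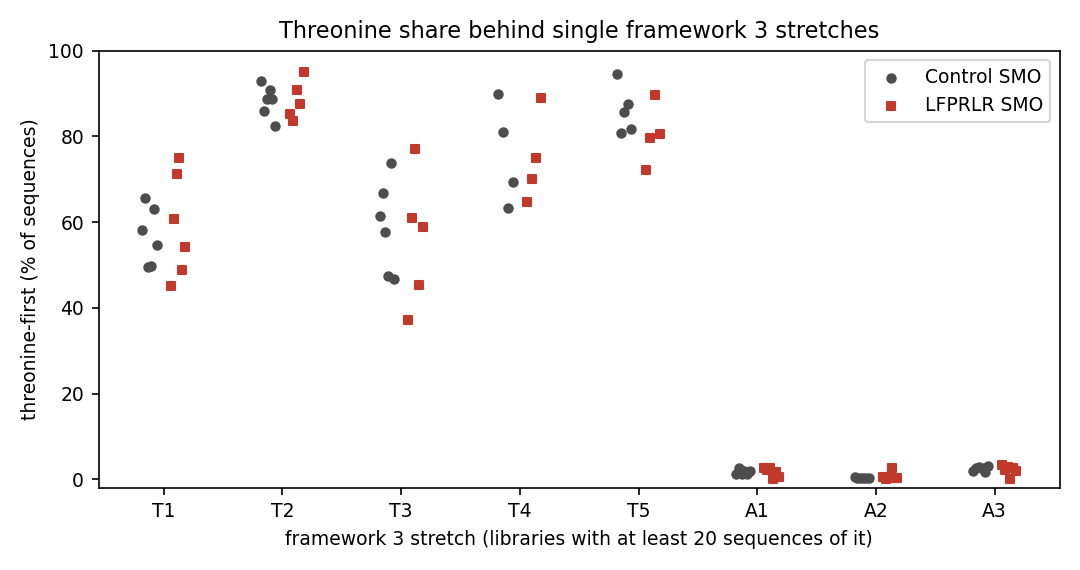
Threonine-first CDR3s as a percentage of the unique nucleotide sequences behind each of 8 framework 3 stretches, 1 point per library with at least 20 such sequences (circles, Control SMO; squares, LFPRLR SMO). Shares lie between 37.3% and 95.2% behind T1 to T5 and at or below 3.29% behind A1 to A3, and the groups overlap behind each stretch.

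The 5 T stretches stood before 37.1% to 65.8% of the threonine-first sequences of a library and before 3.76% to 5.96% of all its sequences. Both upper ends came from LFPRLR SMO replicate 6, with 25 threonine-first sequences behind these stretches. The next highest share of threonine-first sequences was 51.3%, in Control SMO replicate 3. Their joint share of all sequences was 3.86% to 5.89% in Control SMO mice and 3.76% to 5.96% in LFPRLR SMO mice. Outside them, threonine opened 2.73% to 6.54% of the sequences. T1 alone carried a median of 26.9% of the threonine-first sequences but 1.41% of the alanine-first ones, and T2 carried 10.2% and 0.06%.

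Stretches with the same translation differed in their threonine share. To show this, the next 3 stretches by number of sequences with the 22 residues of T1 are printed, and a further one, S4, chosen after its value was seen, with the bases that differ from T1 in capitals.
S1: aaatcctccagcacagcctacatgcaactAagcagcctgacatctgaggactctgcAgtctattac
S2: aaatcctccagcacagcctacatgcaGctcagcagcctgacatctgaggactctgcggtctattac
S3: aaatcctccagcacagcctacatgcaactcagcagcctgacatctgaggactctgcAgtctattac
S4: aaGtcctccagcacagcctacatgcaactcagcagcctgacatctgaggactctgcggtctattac
Behind S1 threonine opened a median of 1.33% of the sequences (0.85% to 1.84% in 11 libraries). Behind S2 the median was 7.60% and behind S3 it was 2.33%, against 56.4% behind T1. Behind S4 it was 61.25%. S2, S3 and S4 each differ from T1 in 1 base, so 1 base went with a low share in some stretches and not in S4.

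The threonine share also differed by the last 12 bases before the cysteine codon, though these alone did not part T1 from A3 or S2. The ending gcggtctattac, found in T1, T3, T4 and A3, stood before a median of 60.9% of threonine-first sequences and 20.04% of all sequences, and threonine followed it in a median of 17.4%. The ending gccgtctattac of T2 and T5 stood before 23.1% of threonine-first and 5.21% of all sequences, with a threonine share of 22.5%. After gcagtctattac, which stood before 26.7% of all sequences, the threonine share was 1.73%, and after gcggtctattat, which encodes the same residues as gcggtctattac, it was 0.46%.

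In translation, the last framework residue before the cysteine and residue 11 differed between the classes. Phenylalanine stood before the cysteine in 1.52% to 4.22% of threonine-first CDR3s and in 12.9% to 21.9% of alanine-first CDR3s of a library. It was lower among threonine-first CDR3s in 12 of 12 libraries, with a difference of -15.2 ± 3.11 percentage points (mean and SD over 12 libraries, exact sign-flip test, p = 0.000488, the smallest that 12 libraries allow). Put the other way, threonine opened a median of 0.87% of CDR3s after a phenylalanine and 7.04% after a tyrosine. Arginine at residue 11 stood in a median of 18.6% of threonine-first and 5.62% of alanine-first translations, and histidine there in 7.13% and 14.5%. Glutamate at residue 16 stood in 96.8% and 87.6%, and valine at residue 20 in 97.3% and 89.9%. Each of these 4 differences had the same sign in 12 of 12 libraries. In all, 1417 distinct translated framework stretches preceded a threonine.

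The threonine itself was nearly always written ACA. The codon ACA made up 84.2% to 92.5% of first codons of threonine-first sequences, with ACC at a median of 4.51%, ACG at 2.62% and ACT at 2.43%. Among alanine-first sequences GCA had a median of 91.1%, GCT of 5.025%, GCC of 2.62% and GCG of 1.16%. The order of the codons therefore differed after the leading one, which ended in A in both classes. ACA opened 89.8% of threonine-first sequences in the median Control SMO library and 90.3% in the median LFPRLR SMO library.

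The second residue set threonine-first CDR3s apart from alanine-first ones. Isoleucine followed the threonine in 33.1% to 51.9% of a library's threonine-first CDR3s, and it followed alanine in 0.92% to 4.03%. Arginine, the usual second residue, followed threonine in 23.9% to 39.2% and alanine in 76.95% to 84.9%. The difference for arginine was -49.5 ± 4.99 percentage points (mean and SD over 12 libraries, exact sign-flip test adjusted over 20 residues, p = 0.00163), and for isoleucine it was 39.6 ± 4.51 with the same p. The ranges of the classes over libraries did not overlap in either residue.

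Of the 20 residues at the second place, 65% passed the adjusted test between the classes, 11 higher and 2 lower after threonine. Beside isoleucine and arginine, the residues that held at least 1% of threonine-first CDR3s in the median library were threonine (4.82% against 2.11% after alanine), methionine (3.42% against 0.23%), lysine (2.81% against 1.42%), asparagine (2.76% against 0.95%), serine (2.71% against 6.30%), glycine (2.00% against 1.14%), proline (1.53% against 0.76%) and leucine (1.10% against 0.71%). Arginine and serine were the 2 that were lower after threonine. Counted by reads, lysine, asparagine, glycine and leucine no longer passed the test. Asparagine and proline did not pass with at least 2 reads, lysine with the overlapping pairs of libraries averaged, or glycine and leucine behind the same framework bases.

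**Figure D3:**
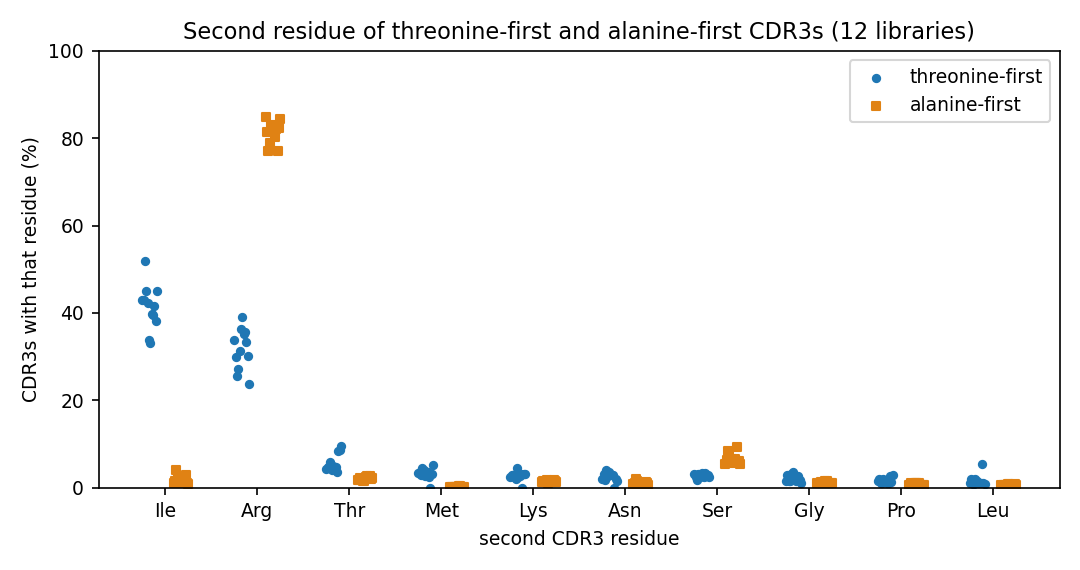
Share of CDR3s with each second residue, in percent, for the 10 residues that held at least 1% of threonine-first CDR3s in the median library. Each point is 1 of 12 libraries (circles, threonine-first; squares, alanine-first). Isoleucine and arginine separate the classes in every library, and serine is the other residue that is lower among threonine-first CDR3s.

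The leading pair belonged to different frameworks. Behind T1, isoleucine was the second residue of a median of 66.1% of threonine-first sequences and arginine of 5.28%. Behind T2 the values were 2.94% and 72.8%, and behind T4 they were 3.96% and 67.5%. The threonine-first sequences found behind A1 held both in like shares, 36.5% and 38.9%, while behind A3 the values were 50.7% and 20.9%. Alanine-first sequences were also reweighted to the framework bases of the threonine-first ones, a comparison added after seeing the data. Arginine then still differed by -55.1 ± 11.3 percentage points (mean and SD over 12 libraries), with medians of 27.8% and 80.5%. LFPRLR SMO replicate 6 entered this mean with 19 threonine-first sequences.

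Between the treatment groups the second residue varied widely. Isoleucine had a lowest, median and highest share of 33.9%, 43.1% and 51.9% among threonine-first CDR3s of Control SMO mice and of 33.1%, 39.7% and 45.1% in LFPRLR SMO mice. Arginine had 25.7%, 30.6% and 36.4% against 23.9%, 34.2% and 39.2%. The groups overlapped in both residues, and the differences of medians were -3.41 and 3.65 percentage points (exact Mann–Whitney U test, adjusted p = 0.563 and 0.693). Of 20 second residues, 0% passed after adjustment and 1, glutamine, had an unadjusted p below 0.05.

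Threonine-first CDR3s were shorter. Their mean length in a library was 9.78 to 10.85 residues, against 10.84 to 11.69 residues for alanine-first CDR3s. They were the shorter class in 12 of 12 libraries, with a difference of -0.90 ± 0.225 residues (mean and SD over 12 libraries, exact sign-flip test, p = 0.000488). Without LFPRLR SMO replicate 6 it was -0.86 residues. The difference was -0.88 residues when alanine-first CDR3s were reweighted to the same translated framework stretches. The excess lay at the short end: in the median library 4.40% of threonine-first and 1.79% of alanine-first CDR3s had 5 residues, and 6.31% and 2.62% had 6 residues. The commonest length was 11 residues in both classes, at 15.4% and 15.6%, and at 12 residues the shares were 11.1% and 14.7%.

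Length also went with the second residue. Threonine-first CDR3s with isoleucine second had a median mean length of 10.7 residues over libraries, those with arginine second had 10.5, and those with any other residue second had 9.41. Alanine-first CDR3s with arginine second had 11.5, to be set against the 10.5. Lengths of alanine-first CDR3s with another second residue were not taken, so the 10.7 and 9.41 have no counterpart here. The longest threonine-first CDR3 had 25 residues and the shortest had 4.

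**Figure D4:**
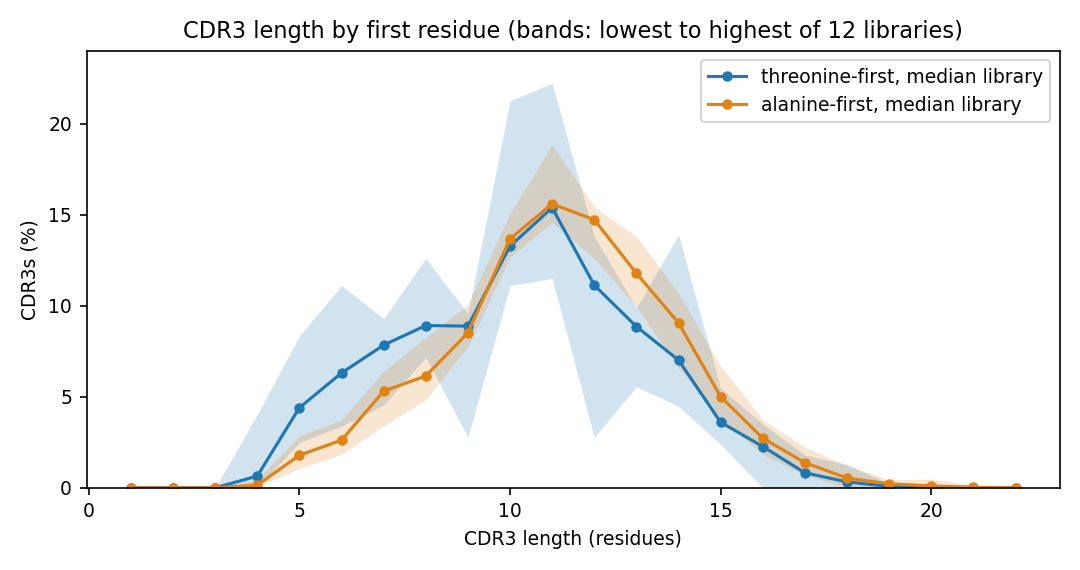
Length distribution of threonine-first (blue) and alanine-first (orange) CDR3s, as the percentage of CDR3s of the class with each length in residues, without the cysteine and the tryptophan. Lines are medians and bands run from the lowest to the highest of 12 libraries, with LFPRLR SMO replicate 6 (36 threonine-first CDR3s) included. The threonine-first line lies above the other at 4 to 9 residues and below it at 12 to 15.

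By group, the mean length of threonine-first CDR3s had a lowest, median and highest value of 10.16, 10.46 and 10.84 residues in Control SMO mice and of 9.78, 10.02 and 10.85 residues in LFPRLR SMO mice. The difference of medians was -0.44 residues (exact Mann–Whitney U test, p = 0.132). LFPRLR SMO replicate 8 held the longest CDR3s of its group, and without it the difference was -0.55 residues with an exact p of 0.0173, where the p over all alternatives ran from 0.0173 to 0.413.

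The J ends were told apart by the residues of the WG[QAT]GT motif and those just after it. Ighj3 ended 16.7% to 37.3% of a library's threonine-first CDR3s, with a median of 34.7%, and a median of 28.6% of alanine-first CDR3s. Ighj4 ended medians of 24.3% and 29.3%, Ighj2 32.0% and 32.1%, and Ighj1 8.29% and 9.11%. Ighj3 was higher among threonine-first CDR3s in 11 of 12 libraries, by 4.91 ± 5.13 percentage points (mean and SD over 12 libraries, exact sign-flip test adjusted over 4 J ends, p = 0.0234). Ighj4 was lower in 11 of 12, with a difference of -4.77 ± 4.10 percentage points (same exact test, p = 0.0176). The exception in both was LFPRLR SMO replicate 6, in which Ighj3 ended 16.7% and Ighj4 33.3% of the 36 threonine-first CDR3s. Without that library the differences were 6.30 and -5.59 percentage points. Of the 4 J ends, 50% passed, but 0 passed when the 3 overlapping pairs of libraries were averaged, and 0 passed when reads were counted in place of translations. With each distinct CDR3 counted 1 time per library 3 passed, the third being Ighj2, higher by 0.68 percentage points among threonine-first CDR3s. Ighj1 leaned on Control SMO replicates 5 and 7, with 14.5% and 12.4%, and its difference of 0.11 percentage points changed sign without either of them or without LFPRLR SMO replicate 6 (-0.34, -0.18 and -0.22). By reads it was 5.71.

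**Figure D5:**
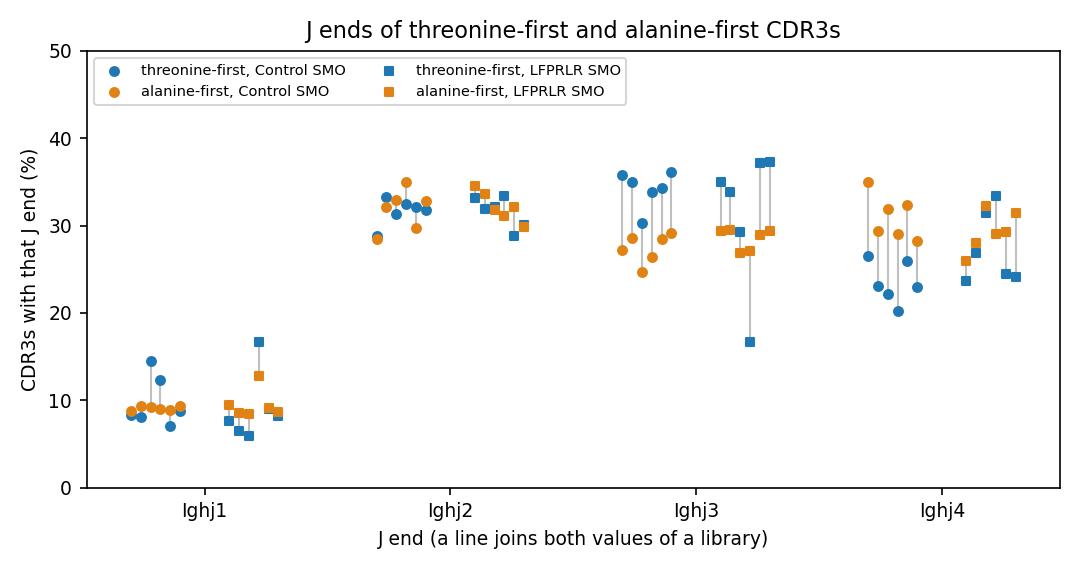
Share of CDR3s with each J end, in percent, for threonine-first (blue) and alanine-first (orange) CDR3s. Circles are Control SMO and squares LFPRLR SMO libraries, and a line joins both values of a library. Ighj3 is higher and Ighj4 lower among threonine-first CDR3s in 11 of 12 libraries.

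Between the groups, Ighj4 ended 20.3% to 26.5% of threonine-first CDR3s in Control SMO mice, with a median of 22.99%, and 23.7% to 33.3% in LFPRLR SMO mice, with a median of 25.6%. All 6 LFPRLR SMO libraries were above the Control SMO median, and the groups overlapped (exact Mann–Whitney U test, adjusted p = 0.260). The difference of medians, 2.65 percentage points, was 1.44 without LFPRLR SMO replicate 4, 5 or 6 and 0.70 with the overlapping pairs averaged. Of the 4 J ends 0% passed the test between groups, and none had an unadjusted p below 0.05.

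From the third residue on, few amino acids separated the classes. Phenylalanine made up a median of 7.04% of these residues in threonine-first and 6.07% in alanine-first CDR3s and was higher in 12 of 12 libraries (difference 0.90 ± 0.38 percentage points, exact sign-flip test adjusted over 20 amino acids, p = 0.00488). The germline ends of Ighj1, Ighj2 and Ighj3 carry a phenylalanine before the tryptophan, and that of Ighj4 does not. Glycine was lower in 12 of 12 libraries, at 11.5% against 11.9% (difference -0.44 ± 0.19, same exact test, p = 0.00488). Aspartate was lower in 10 of 12, at 12.4% against 13.6% (difference -0.99 ± 0.77, same exact test, p = 0.0163). Aspartate no longer passed by reads, with the overlapping pairs averaged, or behind the same framework bases, where the difference was -0.30. In all, 25% of the 20 amino acids passed, 1 higher and 4 lower. Glycine changed sign when only translations with at least 2 reads, or reads, were counted (0.10 and 0.14), and the count of amino acids that passed rose to 8 without LFPRLR SMO replicate 6 and was 3 without any 1 of the Control SMO libraries.

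No difference in read depth between the classes passed the test. Translations with a single read made up 58.7% to 83.3% of threonine-first and 58.6% to 91.0% of alanine-first translations, and the difference of -0.94 ± 2.55 percentage points did not pass (mean and SD over 12 libraries, exact sign-flip test, p = 0.238). Without LFPRLR SMO replicate 6 the difference was -0.33, and it was -0.10 in library set 1 and -1.78 in set 2. A threonine-first translation had a median over libraries of 2.73 reads and an alanine-first one 2.61. Threonine opened 5.16% to 9.39% of the translations read a single time and 4.88% to 11.2% of those with at least 10 reads, in the 11 libraries that held any. Behind A1 the median threonine share was 1.82% among sequences with a single read and 1.33% among those with at least 2 reads, and behind T1 it was 54.8% and 60.0%.

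The commonest threonine-first CDR3 took 1.34% to 50.7% of a library's threonine-first reads. To show which translated CDR3s recurred, the 5 threonine-first CDR3s found in the most libraries are printed from the cysteine codon to the tryptophan codon, with the threonine codon in capitals. Each is the commonest base sequence of its translated CDR3, and the reads given are summed over all base sequences that encode it.
W1: tgtACAactgggtttgcttactgg
W2: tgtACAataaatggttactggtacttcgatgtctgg
W3: tgtACGggcggctttgactactgg
W4: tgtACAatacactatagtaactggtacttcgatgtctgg
W5: tgtACAagatctgggtttgcttactgg
W1, which translates to 6 residues and an Ighj3 end, was found in 12 of 12 libraries with 1 to 1064 reads. It was the commonest threonine-first CDR3 in LFPRLR SMO replicates 7 and 8, with 784 and 1064 reads, of which 682 and 903 had the bases shown. In LFPRLR SMO replicate 6 W1, W2 and W3 had 3 reads each, the most there, while Control SMO replicate 5 and LFPRLR SMO replicate 5 each held 1 read of it. It stood behind 311 different stretches of framework bases, and 14 different base sequences encoded it.

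W2, with 10 residues and an Ighj1 end, was the commonest in Control SMO replicates 5 and 7, with 4158 and 3482 reads, or 50.7% and 38.9% of their threonine-first reads. These are 2 libraries that shared abundant sequences, and in each of them W2 ranked in place 4 among all CDR3s. In Control SMO replicates 3, 4, 8 and 9 W2 had 0, 418, 32 and 55 reads. In the LFPRLR SMO libraries it had 2 to 15 reads. The 3 reads in LFPRLR SMO replicate 6 were out of only 567 CDR3 reads. That was a larger share of CDR3 reads than in Control SMO replicate 3, 4, 8 or 9. That share rests on 3 reads, in a library that shared 12 of its 50 most abundant sequences with Control SMO replicate 4. Whether the 3 reads were carried over was not tested, so no level of W2 is drawn from LFPRLR SMO replicate 6. In LFPRLR SMO replicates 3, 4, 5, 7 and 8 W2 took a smaller share of CDR3 reads than in any Control SMO library except replicate 3. W2 was not high in every Control SMO library. W3, with 6 residues, led in Control SMO replicates 4 and 8, which also shared abundant sequences, with 712 and 1518 reads. W4 and W5 were each found in 10 libraries, with at most 1291 and 119 reads.

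The leading threonine-first CDR3s of the other libraries are printed in the same way.
C3: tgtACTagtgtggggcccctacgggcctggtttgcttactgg
C9: tgtACCcactatgctatggactactgg
L3: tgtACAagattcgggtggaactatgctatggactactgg
L4: tgtACAatatacgggtacttcgatgtctgg
C3 was the commonest in Control SMO replicate 3 with 162 reads and was found in no other library. C9 led in Control SMO replicate 9 with 185 reads, and L3 in LFPRLR SMO replicate 3 with 1566 reads, or 18.4% of its threonine-first reads. L4 led in LFPRLR SMO replicates 4 and 5, which shared abundant sequences, with 270 and 1019 reads. The base sequences shown include all 4 threonine codons, ACA, ACC, ACG and ACT.

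Counted over all libraries, 16185 distinct threonine-first CDR3s were found, 13673 of them in 1 library and 2512 in 2 or more (15.5%). Of 191260 distinct alanine-first CDR3s, 18.6% were in 2 or more. In each library 3.20% to 69.7% of the distinct threonine-first CDR3s were also found in the other treatment group, against 12% to 70.3% of the alanine-first ones, with the highest value of both in LFPRLR SMO replicate 6. These shares depend on how many CDR3s of each class were read and would count any reads carried between libraries, and no test was run on them.

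Translations with a stop were left out by the rule. Among them 7325 held a CDR3 between the same anchors, and 800 of these began with threonine, 0 to 153 in a library. Of the 800, 330 had exactly 2 stops within framework 3.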

How the data were processed

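Igh transcripts of splenic B cells were amplified with J558 VH and Cμ primers and sequenced on MiSeq as paired reads of 150 bases. For each library the authors deposited read counts, as whole numbers without normalization, for each unique nucleotide sequence and each unique translation. They used IMGT HighV-QUEST, while the steps that merged and trimmed reads are not given in the sources used here. Extra columns in the tables of LFPRLR SMO replicate 5 were not used, and its translations total more reads than its nucleotide sequences, which touches its read shares. V segments were not named here.

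Each unique translation counted 1 time unless stated. The software was Python 3.11.15 with NumPy 2.4.6, SciPy 1.17.1 and pandas 2.3.3. Rows without a translation were left out. Framework bases and codons were read from unique nucleotide sequences. The location and the tests were tested on simulated data.

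Groups (6 and 6 libraries) were compared by their medians and the Mann–Whitney U test that the study names, made exact and two-sided by enumerating 924 arrangements, and classes within libraries by a two-sided exact sign-flip test over 12 libraries. p-values were adjusted by Benjamini-Hochberg within each family of residues or J ends. The p-values measure the spread between libraries. Intervals are 95% Wilson intervals and cover counting error only. Second residues, stretches and single CDR3s were named by fixed rules: at least 1% in the median library, most members, most libraries or most reads. Members, lists and tests were chosen with earlier results of these data known. Framework stretches and leading CDR3s were chosen by the values shown. Alternatives covered read minimums, the unit counted, shared libraries, library sets, each library left out and a replicate block.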

Additional observations from a re-analysis of the deposited data

Results flagged for a closer look

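Dixon's test for an outlying library was run on 46 sets, each 1 measure in 1 group. In 5 of these sets 1 library stood apart, and chance marks about 1 in 20 of the sets tested. All 5 came from LFPRLR SMO replicate 6, with its 36 threonine-first CDR3s. Its threonine-first translations with a single read made up 83.3%, against 62.4% to 69.9% in the other LFPRLR SMO libraries. Lysine at the second residue was at 0% (2.50% to 3.19% in the others) and leucine at 5.56% (0.89% to 1.18%). The Ighj1 end stood at 16.7% (5.88% to 9.06%) and the ACT codon at 7.89% (1.59% to 3.82%).

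The gap in Ighj4 between threonine-first and alanine-first CDR3s differed between the treatment groups before adjustment. Its median was -7.46 percentage points in Control SMO mice and -1.72 in LFPRLR SMO mice, a difference of 5.74 (exact Mann–Whitney U test, p = 0.0152, adjusted over 8 such contrasts 0.121). With each library left out in turn the difference stayed between 4.63 and 6.86. This keeps 1 library of each overlapping pair in, and the contrast was not run with those pairs averaged. Control SMO replicates 5 and 7 had gaps of -9.74 and -8.76, and LFPRLR SMO replicates 4 and 5 of -1.14 and -0.81. LFPRLR SMO replicate 8, at -7.34, lay below Control SMO replicates 4, 8 and 9. LFPRLR SMO replicate 6 alone had a gap above 0, at 4.36.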

How the results depend on the processing

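The differences in arginine, phenylalanine before the cysteine and length between the classes kept their sign in every alternative run, and the last 2 also their call. Within library sets of 6, which allow no p below 0.0312, the arginine difference was -48.1 and -50.8 percentage points and no longer passed after adjustment. With that floor a feature can pass only if most of its family have an unadjusted p below 0.05. The counts of 0 given below for each library set carry the same limit. Averaged over the library sets, the group differences in threonine share were 0.22 percentage points for translations and 0.12 for reads. In set 2 the LFPRLR SMO median of both shares was replicate 6. Replicates 8 and 5, the others there, stood at 5.07% and 9.63% of translations and at 4.97% and 9.25% of reads. Leaving out 1 library moved the difference for translations between -0.71 and 0.14 and that for reads between -1.17 and -0.49. The group difference in length ranged from -0.55 to -0.32 residues with 1 library left out. J ends that passed between the classes numbered 0 by reads, with pairs averaged and in each library set, 1 by the signed-rank test, 1 behind the same framework bases and 3 with each CDR3 counted 1 time per library. Amino acids that passed numbered 1 by reads, 2 with pairs averaged, 0 in each library set, 3 by the signed-rank test, 2 behind the same framework bases and 3 to 8 with 1 library left out.

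The Ighj1 difference turned to -0.12 with at least 2 reads, -0.68 with each CDR3 counted 1 time per library and -0.40 in library set 1, was 5.71 by reads and 2.06 behind the same framework bases, and ranged from -0.34 to 0.36 with 1 library left out. The Ighj2 difference turned to 0.68 with each CDR3 counted 1 time, which then passed the test, and to 0.66 in library set 2, and glycine to 0.095 and 0.14 with at least 2 reads and by reads. The causes were not tested. Deviations of same-numbered libraries had correlations from -0.50 to 0.62, and 1 of 10 libraries matched its own number best. Whether the numbers pair mice was not tested. With the replicate block over the 5 shared numbers the differences were -0.62 and -0.94 percentage points for the shares of translations and reads. They were 5.23 percentage points for arginine and -0.41 residues for length. A sign-flip test over 5 differences allows no p below 0.0625, so neither a J end nor any other result could pass there. Depth limits LFPRLR SMO replicate 6 in every comparison.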
